A study of Mus musculus with 6 samples.

Results

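Fibroblast growth factor (Fgf) signalling was examined through 10 genes of the embryonic mouse forebrain. They were taken by name from the array platform's annotation, with earlier results of these data known. They are the ligand genes Fgf8, Fgf15, Fgf17 and Fgf18, the receptor genes Fgfr1, Fgfr2 and Fgfr3, and the feedback genes Spry2, Spry4 and Etv5. They carry 11 of the 21766 probes on the array, 2 of them for Etv5, and all 11 had a value on every array and entered the tests, as did 17476 probes in all. The 6 mutant cortices came from E12.5 embryos that inherited from their father a LacZ-targeted allele of Mest (Peg1) without exons 3 to 8, and the 3 wild-type cortices from E12.5 embryos with no targeted allele. Mest is imprinted and read from the paternal copy, which the mutants lack in the germ line and so in all cells, while their maternal copy is intact. The sources used here give neither strain nor sex. Each 2-colour array set the RNA of 1 mutant cortex against that of 1 wild-type cortex, with mutants 3, 5 and 6 in Cy5 and mutants 1, 4 and 7 in Cy3. Each wild type was taken to serve on 2 arrays, once per dye. The count of 3 wild types rests on reading the label of array 1, wild type 1, as wild type 2.

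Fgf ligands are secreted signals that bind receptor tyrosine kinases together with heparan sulphate and act through the Ras and Mapk kinases. At the rostral midline of the telencephalon Fgf8 and Fgf17 are made by a signalling centre that patterns the cortex along its front-to-back axis. The pathway switches on genes that dampen or relay it, among them the Sprouty genes, the phosphatase gene Dusp6 and the Ets transcription factor genes Etv4 and Etv5, which are widely used as readouts of Fgf activity.

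None of the 10 genes passed the test for a difference between mutant and wild-type cortex, and most had ratios near the array median. All values are log2 of mutant over wild type after subtraction of the array's median, so that 0 stands for the typical probe. The intervals given below do not include the uncertainty of that zero point. Without centring, the median of all probes lay at 0.26. Of the 11 probes 9 had a fitted ratio between -0.25 and 0.25. The median size of the fitted ratio was 0.145 for the 11 probes and 0.138 for all probes, so the members were no closer to 0 than the typical probe. The exceptions were Fgf18 at -0.32 and Spry4 at 0.36, which were also the most scattered. By gene, 6 of the 10 lay above 0 and 4 below, with a median of 0.041, beside 50.2% of all 12588 tested genes above 0 and a median of 0.00083. No member had an adjusted p under 0.05 (limma, lowest adjusted p = 0.90, Benjamini-Hochberg over all probes), and of all probes 0% did. At an unadjusted p under 0.05 there were 0 of the 11 member probes against 3.93% of all probes (280 higher and 407 lower). That count depends on the zero point: on Gapdh control spots it was 4 of 11, with 2671 higher and 90 lower among all probes, and after quantile normalization, which kept a common offset, 5 of 11, with 5039 higher and 85 lower.

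**Figure D1:**
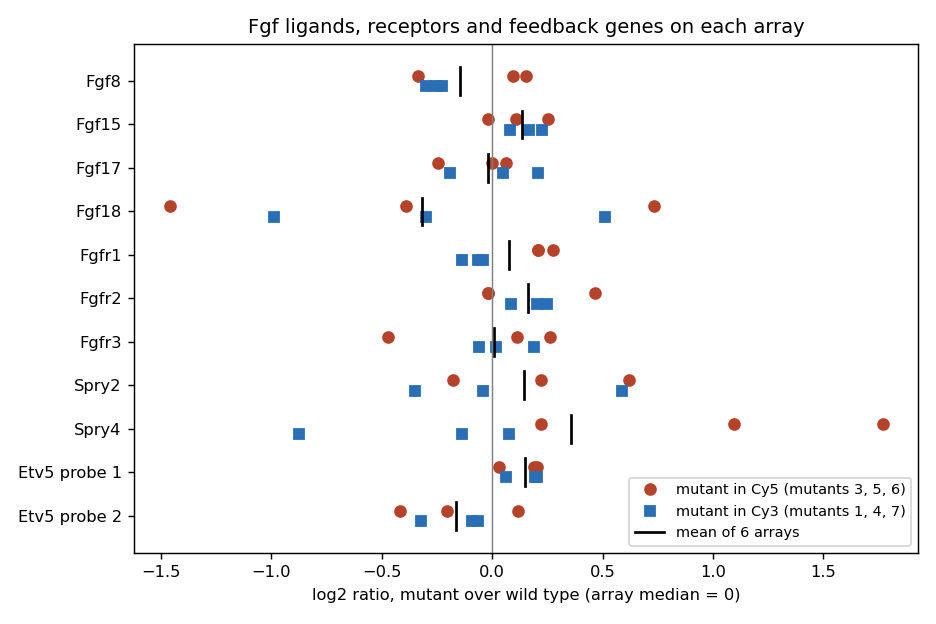
Log2 ratio of mutant over wild type for each of the 11 probes (rows) on each of the 6 arrays, circles for arrays with the mutant in Cy5, squares for those with the mutant in Cy3, and a bar at the mean. Most points lie within 0.5 of 0; Fgf18 spans -1.46 to 0.73 and Spry4 spans -0.87 to 1.77, and for Spry4 and Fgfr1 the circles lie right of all squares.

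Mest itself shows what a change looks like on these arrays. Its ratios were -1.36, -1.78 and -1.39 for mutants 3, 5 and 6 and -1.50, -2.07 and -1.44 for mutants 1, 4 and 7, all below every value of the 10 genes except the lowest of Fgf18. The direction of the deposited ratios was read from Mest, so its lower level is part of that reading. The fitted ratio of -1.59 (95% interval -1.91 to -1.27) reached an adjusted p of 0.60 in limma, so that even a ratio of this size, below 0 on 6 of 6 arrays, did not pass the threshold. In bulk cortex fewer cells of a type and less RNA per cell cannot be told apart, and no signal level was used, so a ratio says nothing on how abundant a transcript is.

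Fgf8, the organiser ligand of the rostral midline, had -0.34, 0.15 and 0.09 for mutants 3, 5 and 6 and -0.23, -0.30 and -0.25 for mutants 1, 4 and 7. It lay below 0 in 4 of 6 mutants, with both positive values on arrays with the mutant in Cy5. Averaged over the 2 arrays of each wild type, which balances the dyes, Fgf8 lay at -0.28, -0.07 and -0.08 against wild types 2, 8 and 9, below 0 for all 3. The fit gave -0.15 (standard error 0.10, 95% interval -0.41 to 0.12, 0.754-fold to 1.09-fold; limma, adjusted p = 0.90). The mean over arrays was -0.15 ± 0.21 (SD, n = 6), and an exact sign-flip permutation test gave a two-sided p of 0.156, where 6 arrays allow 0.0313 at best and 3 independent wild types 0.25.

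Fgf17, a close relative of Fgf8 made at the same midline, showed no lean either way. Its values were -0.24, 0.06 and 0.00 for mutants 3, 5 and 6 and 0.05, 0.21 and -0.19 for mutants 1, 4 and 7. The fitted ratio was -0.02 (95% interval -0.27 to 0.23, 0.829-fold to 1.17-fold).

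Fgf15, a ligand of the embryonic forebrain known as the mouse counterpart of human FGF19, was the steadiest of the ligands. It had -0.02, 0.25 and 0.11 for mutants 3, 5 and 6 and 0.23, 0.17 and 0.08 for mutants 1, 4 and 7. It lay above 0 in 5 of 6 mutants and for all 3 wild types after averaging their arrays (0.10, 0.21 and 0.09). The fitted ratio was 0.14 with a standard error of 0.082 (95% interval -0.07 to 0.34, 0.953-fold to 1.27-fold), and it did not pass (limma, adjusted p = 0.90). Its SD over arrays, 0.10, was smaller than that of all but 3.85% of probes with 6 values.

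Fgf18, of the same subfamily as Fgf8 and Fgf17, was too scattered for a direction. Its values were -1.46, 0.73 and -0.39 for mutants 3, 5 and 6 and -0.30, -0.99 and 0.51 for mutants 1, 4 and 7, so high and low values occurred in both dye orientations. The fitted ratio of -0.32 (standard error 0.41) had a 95% interval from 0.395-fold to 1.63-fold. Its SD of 0.84 exceeded that of 84.6% of probes.

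The receptor probes had SDs over arrays between 0.18 and 0.26, narrower than Fgf18 and wider than Fgf15. Fgfr1, the main receptor of early telencephalic progenitors, had 0.21, 0.28 and 0.21 for mutants 3, 5 and 6 and -0.04, -0.14 and -0.07 for mutants 1, 4 and 7. Its values were therefore above 0 on every array with the mutant in Cy5 and below 0 on every array with the mutant in Cy3. Once each wild type's 2 arrays were averaged, the values were 0.08, 0.07 and 0.07, with an SD of 0.0074 between wild types. The fitted genotype ratio was 0.07 (95% interval -0.10 to 0.25, 0.931-fold to 1.19-fold), while the dye coefficient, the ratio with the mutant in Cy5 minus that in Cy3, was 0.31 with a standard error of 0.11 (limma, adjusted p = 0.22).

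Fgfr2, a receptor of neural progenitors with splice forms that differ in ligand choice, had -0.02, 0.47 and -0.02 for mutants 3, 5 and 6 and 0.09, 0.21 and 0.25 for mutants 1, 4 and 7. It lay above 0 on 4 of 6 arrays and for all 3 wild types after averaging (0.03, 0.34 and 0.12), with a fitted ratio of 0.16 (95% interval -0.11 to 0.43, 0.928-fold to 1.35-fold). Fgfr3, whose transcript is graded towards caudal cortex, had 0.11, 0.26 and -0.47 for mutants 3, 5 and 6 and 0.19, 0.02 and -0.06 for mutants 1, 4 and 7. Its fitted ratio of 0.01 (95% interval -0.32 to 0.34, 0.801-fold to 1.26-fold) was the closest to 0 of the 11 probes, and only mutant 6 lay beyond 0.3 in size. Neither receptor gene passed (limma, adjusted p = 0.90 and 0.99).

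**Figure D2:**
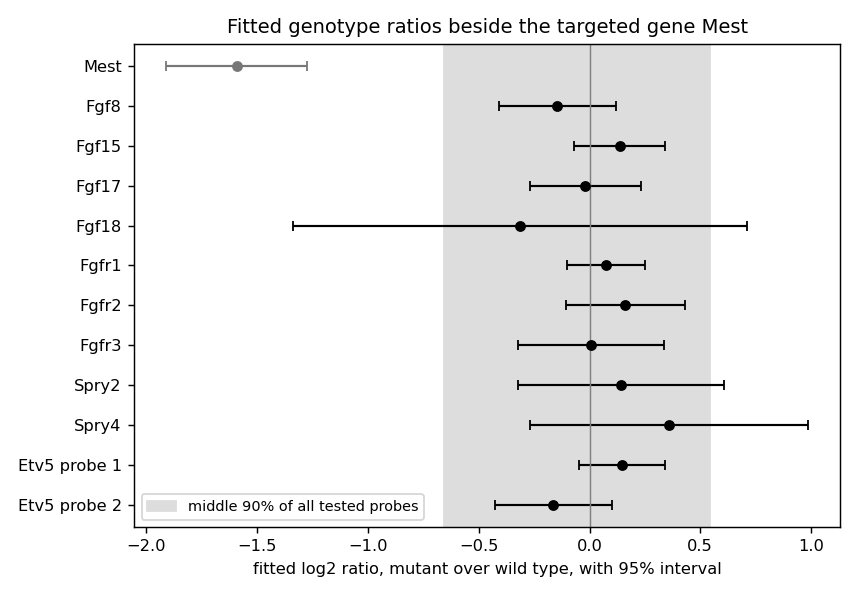
Fitted log2 ratio of mutant over wild type (points) with its 95% interval (bars) for the targeted gene Mest and the 11 Fgf probes, over a grey band that holds the middle 90% of all tested probes (-0.66 to 0.54). All 11 intervals cross 0, that of Mest (-1.91 to -1.27) does not, and Fgf18 and Spry4 have the widest intervals.

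Among the feedback genes, Spry4 had the largest fitted ratio of the 10 genes, and its values split by dye orientation. Spry4 encodes a Sprouty protein that restrains receptor tyrosine kinase signalling. It had 1.10, 1.77 and 0.22 for mutants 3, 5 and 6 and 0.08, -0.14 and -0.87 for mutants 1, 4 and 7, so that every array with the mutant in Cy5 exceeded every array with the mutant in Cy3. The means of the orientations were 1.03 with the mutant in Cy5 and -0.31 with the mutant in Cy3. The fitted genotype ratio was 0.36 with a standard error of 0.25 (95% interval -0.27 to 0.99, 0.829-fold to 1.98-fold; limma, adjusted p = 0.90), against a dye coefficient of 1.34 with a standard error of 0.39 (limma, adjusted p = 0.18). Averaged by wild type, Spry4 lay at 0.59 and 0.82 against wild types 2 and 8 and at -0.33 against wild type 9.

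The arrays of the dye orientations thus did not overlap for 2 of the 11 probes, Fgfr1 and Spry4. For both, all arrays with the mutant in Cy5 were higher, as for 11.1% of all probes with 6 values. Each mutant was on 1 array, so for a single gene the dye and the set of mutants labelled with it cannot be told apart. The same 2 probes had an unadjusted p under 0.05 for the dye term, against 20.0% of all probes. No member passed the adjusted threshold for dye, which 0.269% of all probes did. The median size of the dye coefficient was 0.084 over the 11 probes and 0.35 over all probes, and Spry4 was the 1 member whose dye coefficient was beyond 1 in size, a size reached by 19.7% of all genes.

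Spry2 encodes another Sprouty inhibitor, induced by Fgf in many embryonic tissues. It had 0.62, -0.18 and 0.22 for mutants 3, 5 and 6 and -0.04, -0.35 and 0.59 for mutants 1, 4 and 7. Mutants 3 and 7 stood highest and mutant 4 lowest, in no relation to the dye. By wild type the averages were 0.29, -0.26 and 0.40, so that both arrays of wild type 8 were below 0. The fitted ratio was 0.14 with a standard error of 0.18 (95% interval -0.32 to 0.61, 0.801-fold to 1.52-fold; limma, adjusted p = 0.90).

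A pair of other Fgf feedback genes had the signs of Spry2 on every array, a resemblance seen only after their values were known. Spry1, a further Sprouty gene, had 0.51, -0.41 and 0.22 for mutants 3, 5 and 6 and -0.36, -0.55 and 0.42 for mutants 1, 4 and 7. Dusp6, the phosphatase that switches off the Mapk Erk, had 0.22, -0.32 and 0.10 for mutants 3, 5 and 6 and -0.04, -0.26 and 0.50 for mutants 1, 4 and 7. Relative to the array median, each was thus above 0 in mutants 3, 6 and 7 and below 0 in mutants 1, 4 and 5. This split exists only after centring: as deposited and turned to mutant over wild type, all 3 genes were above 0 on 5 of 6 arrays and below 0 for mutant 1 alone, with Spry2 at 0.585 in mutant 5 and 0.235 in mutant 4. The signs of Spry2 recurred in 2 of 7 further feedback and target genes with 6 values, in 3 of 11 heparan sulphate genes (Ext1, Sulf2 and Gpc3) and in 1.90% of all genes. They recurred in 0 of 11 further ligands, 0 of 5 further receptor genes, 0 of 12 relay genes, 0 of 6 regulators of rostral Fgf8 and none of the other members. Signs were counted whatever their size, and the values of Ext1 ran only from -0.0845 to 0.145. The averages of Spry1 and Dusp6 over mutants stayed near 0, with fitted ratios of -0.03 for Spry1 and 0.03 for Dusp6.

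Xist, the RNA of the inactive X chromosome of females, had 3.18, -0.36 and 1.21 for mutants 3, 5 and 6 and 0.41, -2.38 and 2.09 for mutants 1, 4 and 7, highest in the same 3 mutants as Spry2, above 0 in mutant 1 too, and lowest in mutant 4. The Y-linked genes did not mirror it in 1 order: Eif2s3y was below 0 on 6 of 6 arrays, Uty was above 0 in mutant 4 alone and at -1.76 in mutant 5, and Kdm5d was above 0 in mutants 4 and 5. Among 9 markers of meninges and mesenchyme with 6 values 1 shared the signs, the mesenchymal regulator Twist1 with 0.91, -0.74 and 0.30 for mutants 3, 5 and 6 and -0.28, -0.69 and 0.78 for mutants 1, 4 and 7. The mean of the whole list did not follow, with -0.15, 0.21 and 0.19 and then -0.34, -0.14 and -0.003 in the same order. Of 10 dorsal cortex markers 1 shared the signs, the cortical homeobox gene Emx1, at 1.33, -0.46 and 0.16 for mutants 3, 5 and 6 and -0.30, -0.23 and 0.21 for mutants 1, 4 and 7. The part of sex, of the wild type used and of mesenchyme in the Sprouty and Dusp6 values was not tested.

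**Figure D3:**
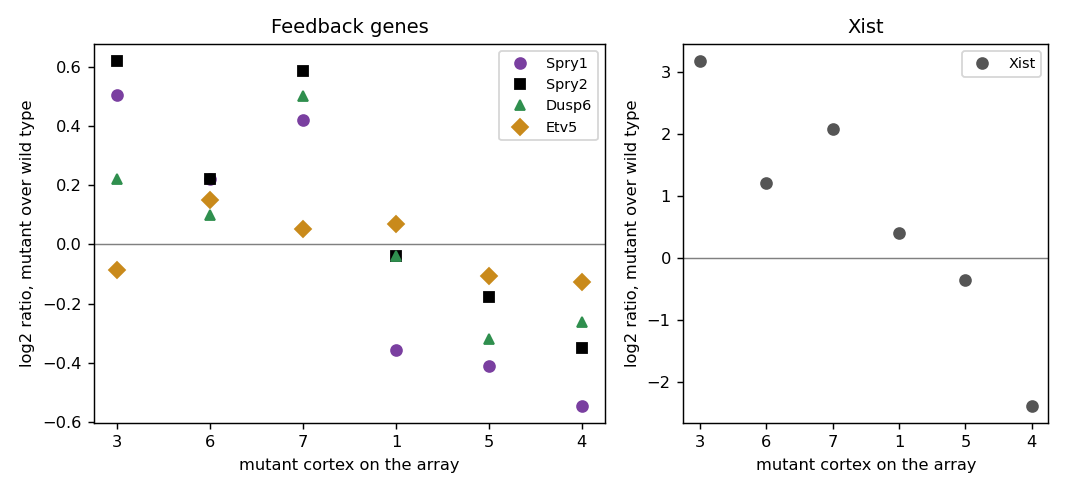
Log2 ratio of mutant over wild type on each array for Spry1, Spry2, Dusp6 and Etv5 (mean of its 2 probes; left panel) and for Xist (right panel), all relative to the array median, with the 3 mutants in which Spry2 was above 0 on the left of each axis. Spry1, Spry2 and Dusp6 lie above 0 for mutants 3, 6 and 7 and below 0 for mutants 1, 5 and 4, Etv5 stays close to 0, and Xist is highest in mutants 3 and 7 and lowest in mutant 4.

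The stretches upstream of these feedback genes are shown because Spry2, Spry1 and Dusp6 shared their signs on the arrays and Etv5 did not. Promoter sequence was on hand for 5 of the 10 genes (Fgf18, Fgfr2, Fgfr3, Spry2 and Etv5), and for Spry1 and Dusp6, from RefSeq on build GRCm38.p6. Each run is the 250 bases before a transcription start, 5′ to 3′ on the strand of the gene, and capitals mark the core GGAA of Ets factor sites and its complement TTCC. The runs lie at chr14:105896820-105897069 (minus strand) for Spry2, chr3:37639697-37639946 (plus strand) for Spry1, chr10:99262981-99263230 (plus strand) for Dusp6, and chr16:22439571-22439820 and chr16:22438369-22438618 (minus strand) for the 2 starts of Etv5.
Spry2: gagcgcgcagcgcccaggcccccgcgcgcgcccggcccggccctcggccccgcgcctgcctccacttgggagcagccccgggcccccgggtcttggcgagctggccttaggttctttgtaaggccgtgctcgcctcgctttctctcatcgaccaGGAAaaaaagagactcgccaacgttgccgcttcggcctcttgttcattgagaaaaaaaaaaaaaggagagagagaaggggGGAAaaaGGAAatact
Spry1: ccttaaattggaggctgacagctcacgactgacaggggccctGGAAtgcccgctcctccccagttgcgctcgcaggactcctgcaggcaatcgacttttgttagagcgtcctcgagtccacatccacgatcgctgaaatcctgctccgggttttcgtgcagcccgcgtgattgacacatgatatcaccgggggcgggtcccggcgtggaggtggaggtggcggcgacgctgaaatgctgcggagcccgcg
Dusp6: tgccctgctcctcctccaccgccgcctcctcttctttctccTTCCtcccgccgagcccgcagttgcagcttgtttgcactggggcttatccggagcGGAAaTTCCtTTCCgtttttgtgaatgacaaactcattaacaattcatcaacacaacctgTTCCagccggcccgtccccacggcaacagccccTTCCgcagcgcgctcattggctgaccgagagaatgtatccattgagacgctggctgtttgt
Etv5 start 1: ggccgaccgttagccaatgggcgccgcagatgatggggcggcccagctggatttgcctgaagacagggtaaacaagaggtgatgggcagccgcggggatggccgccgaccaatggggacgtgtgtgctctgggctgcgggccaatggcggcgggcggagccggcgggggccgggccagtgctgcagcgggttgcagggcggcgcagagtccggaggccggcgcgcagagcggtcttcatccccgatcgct
Etv5 start 2: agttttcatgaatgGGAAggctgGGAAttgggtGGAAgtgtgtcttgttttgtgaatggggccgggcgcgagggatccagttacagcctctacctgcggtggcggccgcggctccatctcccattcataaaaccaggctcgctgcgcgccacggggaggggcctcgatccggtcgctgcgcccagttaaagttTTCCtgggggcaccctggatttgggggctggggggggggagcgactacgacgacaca

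The core occurred 3 times before Spry2, 1 time before Spry1 and 6 times before Dusp6. Before Etv5 it occurred 0 times at the start listed first and 4 times at the other. Of 32851 upstream stretches of the same length 93.4% held at least 1 core, 54.7% at least 3, 33.4% at least 4 and 8.69% at least 6, with a median of 3. The longer motif CCGGAAG, searched with its complement CTTCCGG and containing the core, was in none of the 5 stretches and in 6.91% of all. The genes with shared signs spanned 1 to 6 cores and the starts of Etv5 0 to 4, and a link between cores and signs was not tested.

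Etv5 encodes an Ets transcription factor whose transcript rises with Fgf activity, and its 2 probes disagreed. Probe 1 had 0.03, 0.20 and 0.19 for mutants 3, 5 and 6 and 0.20, 0.07 and 0.20 for mutants 1, 4 and 7. It lay above 0 on 6 of 6 arrays, the 1 probe of 11 with the same sign throughout, against 5.59% of all probes with 6 values. Without centring its sign was not uniform: the deposited value for mutant 7, in Cy3, was 0.089, which is below 0 when turned to mutant over wild type. The fitted ratio of probe 1 was 0.15 with a standard error of 0.077 (95% interval -0.05 to 0.34, 0.967-fold to 1.27-fold; limma, adjusted p = 0.90). The exact sign-flip permutation p of 0.0313 is the smallest that 6 arrays allow. That test takes the arrays as independent, while 3 independent wild types allow 0.25 at best. Probe 2 had -0.20, -0.42 and 0.12 for mutants 3, 5 and 6 and -0.06, -0.32 and -0.09 for mutants 1, 4 and 7, below 0 on 5 of 6 arrays, with a fitted ratio of -0.16 (95% interval -0.43 to 0.10). Probe 1 exceeded probe 2 on 6 of 6 arrays, by 0.31 ± 0.18 (SD, n = 6; exact permutation p = 0.0313, unadjusted), a test with the same limit. The mean of both probes gave Etv5 a ratio of -0.0082, so that no direction can be given for the gene.

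By role, the 4 ligands averaged -0.09 ± 0.27, the 3 receptors 0.08 ± 0.14 and the 3 feedback genes 0.16 ± 0.31 (SD over 6 arrays, 1 value per gene). On the array of mutant 3 the ligands lay at -0.51 and the feedback genes at 0.54, while on that of mutant 5 they lay at 0.30 and 0.49. Fgf18 and Spry4, the most scattered genes, carry much of these values.

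As a description of arrays and not of function, the genes nearest in pattern to Fgf8 and Spry4 were found by the mean absolute difference of the ratio over 6 arrays. For Fgf8 they were S100a6, Prim1 and Hars, at 0.034, 0.057 and 0.067, where the median over 10955 named probes was 0.34. For Spry4 they were Spag6l, Cacnb4 and Fzd5, at 0.16, 0.19 and 0.20, where the median was 0.74.

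The rest of the pathway, in lists drawn up with earlier results of these data known, gave no call either. Of 16 further ligand genes 12 lay above 0 and 4 below, with a median of 0.16, and 0 passed. The smallest p belonged to Fgf2, a growth factor for cortical progenitors, and Fgf10, a ligand of progenitors and of mesenchyme, both with opposite signs in the dye orientations. Fgf2 had 1.09 and 1.96 for mutants 3 and 6 in Cy5 against -3.19, -2.52 and -4.33 for mutants 1, 4 and 7 in Cy3, with no value for mutant 5. Fgf10 had 0.28, 1.24 and 0.02 for mutants 3, 5 and 6 against -0.61, -2.93 and -3.25 for mutants 1, 4 and 7. A dye coefficient beyond 1 in size was found for 8 of the 16 further ligands and for none of Fgf8, Fgf15, Fgf17 and Fgf18. Among all genes 19.7% had one. Some of these 8 lacked values, with Fgf1 on 5 arrays and Fgf16 on 4.

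**Figure D4:**
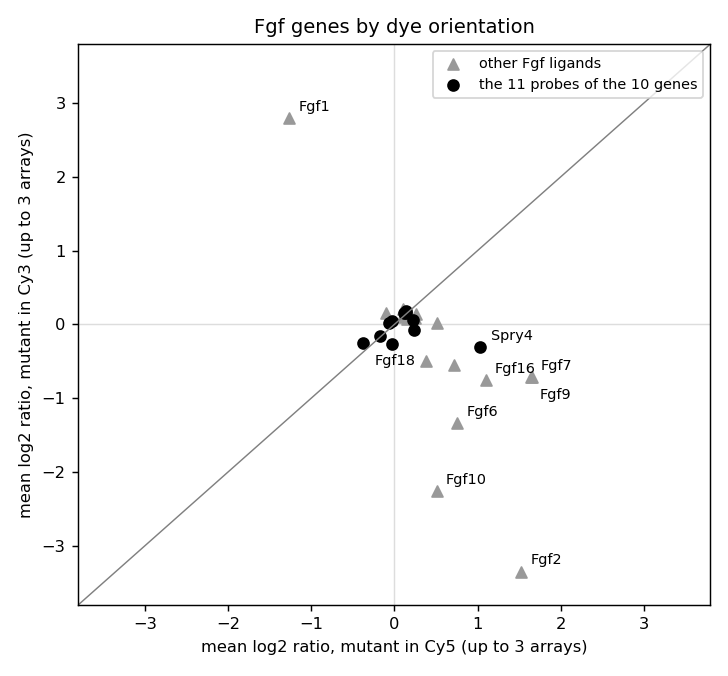
Mean log2 ratio of mutant over wild type on arrays with the mutant in Cy5 (x axis) against those with the mutant in Cy3 (y axis), for the 11 probes of the 10 genes (circles) and the 16 further Fgf ligand genes (triangles); on the diagonal both orientations give the same ratio. Most of the circles sit near the origin, Spry4 lies at 1.03 and -0.31, and Fgf1, Fgf2 and Fgf10 are far from the diagonal.

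Of 6 further receptor and co-receptor genes 3 lay above 0 and 3 below, led by the decoy receptor gene Fgfrl1 at 1.28 (standard error 0.95, 5 arrays) and the Fgf-binding protein gene Fgfbp3 at -0.24. Of 8 further feedback and target genes 5 lay above 0 and 3 below. Those with the smallest p were the immediate early gene Egr1 at -0.61 (standard error 0.34, 4 arrays) and the Ets factor gene Etv1 at 0.20. Etv4, an Ets factor gene like Etv5, lay at -0.04.

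Of 12 genes of the Ras and Mapk relay 8 lay above 0. Nras, a Ras GTPase, had a ratio of 0.29 with an unadjusted p of 0.045, above 0 on 5 of 6 arrays, and Plcg1, a phospholipase that receptors activate, had 0.30, above 0 on 6 of 6. Of 12 heparan sulphate genes 8 lay above 0, and Ext2, which encodes part of the enzyme that builds the chain, had -0.24 with an unadjusted p of 0.027, below 0 on 6 of 6. Hs6st1, a sulphotransferase gene, lay at 0.38 (standard error 0.25). Neither Nras nor Ext2 passed after adjustment (limma, adjusted p = 0.90), and an unadjusted p under 0.05 was reached by 3.96% of all genes. Of 7 regulators of rostral Fgf8 3 lay above 0 and 4 below, with Gli3, a repressor in Hedgehog signalling, at 0.25 and Emx2, a homeobox gene opposed to Fgf8, at -0.10.

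Markers of the tissue and its neighbours had mixed signs, and ratios cannot show whether a marker was present. The 11 dorsal cortex genes tested averaged -0.006 ± 0.13 over arrays, the 10 ventral telencephalon genes -0.03 ± 0.23 and the 7 isthmus and midbrain genes, a further site of Fgf8, 0.03 ± 0.18. The 9 genes of diencephalon and eye averaged 0.12 ± 0.35, the 10 of meninges -0.04 ± 0.21, the 8 of endothelium -0.10 ± 0.22 and the 7 of surface ectoderm -0.29 ± 0.39. The 6 red blood cell genes averaged -0.28 ± 0.14, below 0 in all 6 mutants (-0.47 to -0.09), with Hbb-bh1 and Hbb-y, embryonic globins, at -0.36 and -0.42. None of these genes passed after adjustment. An unadjusted p under 0.05 was reached by 3 of the 6 red blood cell genes, all lower in the mutants, against 3.96% of all genes. Tcf7l2 of the diencephalon list lay at 0.55, above 0 on 6 of 6 arrays (limma, unadjusted p = 0.011). That list was mixed, with 4 of its 9 genes above 0, 5 below and a median of -0.03. Krt18 of the surface ectoderm list lay at -0.68 (limma, unadjusted p = 0.020), with a dye coefficient of 1.07. It had 0.08, -0.14 and -0.36 for mutants 3, 5 and 6 and -1.50, -0.46 and -1.67 for mutants 1, 4 and 7. Of the 7 genes tested in that list 2 lay above 0 and 5 below. The part of blood content and of neighbouring tissue in the ratios of the Fgf genes was not tested.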

How the data were processed

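The authors deposited 1 log2 ratio per probe and array for 6 2-colour oligonucleotide arrays. Per the labels, RNA of single cortices was extracted with Trizol. The sources used here do not give the scanner, background treatment, normalization, scale or direction. Array medians of the deposited values ran from -0.59 to 0.76. Values were taken to be Cy5 over Cy3 on a log2 scale, since Mest had deposited values of -1.21 to -1.02 with the mutant in Cy5 and 1.49 to 1.73 with it in Cy3.

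The ceiling of 16.61 (590 values) was treated as missing and 232 control spots were left out. Ratios were turned to mutant over wild type and centred on each array's median. Between 16422 and 19564 of 21766 probes had a value, and the number of arrays limits the precision.

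Probes with values on at least 4 arrays, at least 2 of them in each orientation, entered a limma fit (version 3.58.1, R 4.3.3) with a genotype intercept, a dye term and the shared wild type as a random block (consensus correlation 0.25). Array 1 names wild type 1, outside the design's list, and was read as wild type 2. The fit was tested on simulated data. Single values used exact sign-flip tests. Lists used the mean of a gene's probes. Probe names came from the platform annotation, with 16184 of 17003 probes matched to the gene table of GRCm38.p6.

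The members, lists and tests were chosen with earlier results of these data known. The text names every member, Mest, the 2 genes of smallest p per pathway list, and the 3 nearest genes to Fgf8 and Spry4. Spry1, Dusp6, Etv4, Xist, Twist1, Emx1 and the genes with the signs of Spry2 were named after their values were seen, as were the globins, Tcf7l2 and Krt18.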

Additional observations from a re-analysis of the deposited data

How the results depend on the processing

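No genotype call appeared for any probe under any alternative in limma (0 throughout, 687 at an unadjusted p under 0.05 in the reported fit). Of the alternatives 7 cannot move a member's ratio. The others moved 156 member ratios, of which 135 kept their direction and 21 did not, and 0 were called, with a lowest adjusted p of 0.12 after quantile normalization. The median of all probes lay at 0.26 without centring, on Gapdh control spots and after quantile normalization. Under these settings Fgf8 lay at 0.11, 0.12 and 0.11, Fgf17 at 0.23, 0.24 and 0.24, and Etv5 probe 2 at 0.089, 0.097 and 0.11, above 0 but below the typical probe. Fgf15 lay at 0.39, 0.40 and 0.39 and Fgfr1 at 0.33, 0.34 and 0.33. At an unadjusted p under 0.05 there were 0, 4 and 5 of 11 member probes, and 2 without variance moderation. Without centring 179 probes were higher and 44 lower at that p. Scaling to a common spread turned Fgfr3 to -0.027, and 1 value per gene turned Etv5 probe 1 to -0.0082. With the mutant in Cy5 alone Fgfr3 lay at -0.0325, and with it in Cy3 alone Fgf17 lay at 0.023, Fgfr1 at -0.082 and Spry4 at -0.31, against 1.03 in Cy5. When any 1 array was left out, Fgf17 ranged from -0.064 to 0.041 and Fgfr3 from -0.065 to 0.105, across 0, while the other members kept their sign. The ratio moved by over 1.5 times for Fgf18 (-0.05 without mutant 3, -0.13 without 4, -0.59 without 5, -0.51 without 7), Spry2 (0.04 without 3, 0.01 without 7, 0.24 without 4 or 5), Fgf8 (-0.07 without 3), Fgfr2 (0.08 without 5), Spry4 (0.17 without 5) and Etv5 probe 2 (-0.10 without 5). The 47 probes called for dye became 0 to 26 when 1 array was left out, 1 without the wild-type block, 10 on Gapdh control spots, 2 with at least 2 values, 31 with the ceiling value kept, 0 without variance moderation, 19 with 1 value per gene, 150 after quantile normalization, 135 where 6 values were required, 176 with scaling, 402 at an adjusted p of 0.10 and 658 without centring. The causes were not tested. Signal over background was not used, so dim probes could not be set apart.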
